A study of Mus musculus with 18 samples.

Results

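The molar dental epithelium of mice whose labels give a knockout of both Hmgn1 and Hmgn2 was followed from embryonic day 17 (E17) to the day of birth (postnatal day 0, P0). All libraries with this genotype at these stages were taken, 3 at E17 and 3 at P0, which are 6 of the 18 libraries of the series. The 6 wild-type libraries of the same stages (3 at E17 and 3 at P0) served as the level against which the stage change was read. Both genes encode nucleosome-binding proteins of the high mobility group that make chromatin more open, and the series compares gene expression with and without them.

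Between these stages the inner layer of the dental epithelium leaves the cell cycle and becomes preameloblasts and then ameloblasts, the tall secretory cells that lay down the enamel matrix. The switch is known to depend on signals that pass between this epithelium and the neighbouring mesenchyme, among them Wnt, BMP, FGF and Hedgehog ligands, and on epithelial transcription factors such as DLX3. The mesenchymal cells facing the epithelium become odontoblasts, which secrete a collagen matrix that mineralises as dentin.

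The epithelium was separated from the mesenchyme of tooth germs with dispase at 1 U/ml, and 1 µg of total RNA depleted of ribosomal RNA went into each library. The genotype label is Hmgn1-/-; Hmgn2-/- in the double knockout and WT in the controls. The labels give neither the origin of the alleles nor whether litters, sexes or pools of animals differed. Whether the 3 libraries of each group represent different animals is not stated, so a p-value measures the spread between libraries, which may be technical.

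The values of the E17 libraries and of the P0 libraries were deposited in separate tables, so stage and table cannot be told apart. There are 110159 transcripts at E17 and 16381 at P0. The tables share 4546 genes, on chromosomes 1 and 10 and on chromosome 11 up to position 96873954 of mm10. Other genes, Hmgn1 and Hmgn2 among them, were not analysed here at P0. At E17 the deposited level of Hmgn2 was 0.839 to 0.975 in the double knockout against 320.0 to 354 in wild type. The unit was taken to be reads per kilobase scaled to sequencing depth (RPKM). Hmgn1 RNA was at 86.2 to 92.9 RPKM in the double knockout against 123 to 133 in wild type, so its transcript remained and its level does not by itself check the Hmgn1 label. The keratins Krt14 (569 to 601 RPKM) and Krt5 (1156 to 1259 RPKM), Epcam (68.8 to 78.1) and Trp63 (33.6 to 37.6) showed that the E17 double knockout libraries held epithelium. The same libraries also held RNA of other tissues, such as Col3a1 of mesenchyme (339 to 436 scaled RPKM) and the globin gene Hba-a2 (2728 to 5657). Of the epithelial markers checked that both tables hold, Perp, Lamb3 and Cd24a were higher at P0 in the double knockout, and Cldn7 was lower, at 0.375–0.645 against 3.16–3.58 scaled RPKM. Per double knockout library the authors deposited 71800418 to 99967427 alignments at E17 and 75440986 to 108920337 at P0.

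Libraries were brought to a common upper quartile over the shared genes, and all levels below are such scaled RPKM unless said otherwise. A log2 change is the mean of log2(scaled RPKM + 1) at P0 minus that at E17, which understates the change of genes with low levels, and it is followed by its standard error (SE, n = 3 libraries per stage). Of the 4546 genes, 2163 had at least 1 scaled RPKM in at least 3 of the 6 double knockout libraries and were tested with limma. At an adjusted p under 0.05, 1403 genes (64.9%) were called, 629 higher (29.1%) and 774 lower (35.8%) at P0. Without scaling the split was 552 higher and 765 lower, and with median-of-ratios scaling it was 818 higher and 601 lower. Because the split moved with the scaling, a gene is said below to have risen or fallen only where it passed in the same direction under all 3 scalings. By that rule, which was added after the data were seen, 552 genes rose (25.5%) and 601 fell (27.8%), together 53.3% of those tested. A rise of at least 1 on the log2 scale was met by 100 genes (4.62%) and a fall of that size by 165 genes (7.63%). The median log2 change over the genes tested was -0.05, and it was -0.07 without scaling and 0.05 with median-of-ratios scaling. Correlations of log2 levels over the tested genes were 0.989 to 0.997 between double knockout libraries of one stage and 0.905 to 0.922 between stages.

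The transcription factor genes Dlx3 and Dlx4, neighbours on chromosome 11 (chr11:95120119-95125296 and chr11:95140447-95146263), rose together. DLX3 is a homeodomain protein needed for enamel and dentin, and mutations of its human counterpart cause tricho-dento-osseous syndrome. Dlx3 was at 21.8, 21.5 and 20.9 scaled RPKM in the 3 E17 libraries and at 103, 93.6 and 105 in the 3 P0 libraries, so the stages did not overlap, as for 1518 of the 2163 genes (70.2%). Its rise was 4.70-fold, with a log2 change of 2.18 ± 0.05 (adjusted p = 8.9e-08). Dlx4 went from 3.58–3.91 to 17.04–19.98 (log2 2.06 ± 0.07). Ascl5, a basic helix-loop-helix gene that also goes by the name AmeloD, was at 15.4, 17.1 and 17.04 at E17 and at 60.9, 71.9 and 75.2 at P0 (log2 2.001 ± 0.08, adjusted p = 9.7e-07). In wild type Ascl5 went from 5.74–7.24 to 88.9–104, so its starting level was higher and its rise smaller in the double knockout. The difference of the changes was -1.67 ± 0.13 on the log2 scale (adjusted p = 1.4e-06). Bcl11a, a zinc finger gene, rose by 0.79.

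Of 17 tested members of the list of dental and epithelial transcription factors, 4 rose and 10 fell, and their median log2 change was -0.36 against 0.02 in wild type. The background over all tested genes was 25.5% rising and 27.8% falling in the double knockout and 32.7% rising and 17.4% falling in wild type, against which the list counts of each genotype are to be read. Tfap2b, an AP-2 factor, fell from 5.85–6.90 to 0.434–0.799 (log2 -2.27 ± 0.11), and Elf3, an Ets factor of differentiating epithelia, from 6.15–8.003 to 1.21–1.48. The T-box repressor gene Tbx2 fell by 1.502 on the log2 scale, and the homeobox gene Meis1 fell by 1.20. In wild type these 4 genes had log2 changes of -1.80, -1.24, -0.67 and -1.11. Prdm1, the gene of a zinc finger repressor that acts in terminal differentiation of several cell types, was at 4.52, 3.63 and 4.60 at E17 and at 1.82, 1.11 and 1.41 at P0, a log2 change of -1.11 ± 0.12. Prdm1 was higher at P0 in wild type (0.30), and the difference between genotypes was -1.40 ± 0.18 (adjusted p = 5.3e-05). Hey2, a Notch target gene, likewise fell in the double knockout (-0.44) and rose in wild type (1.001). Nfic, a factor known for its part in root formation, fell by 0.33 on the log2 scale and had a change of -0.27 in wild type.

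**Figure D1:**
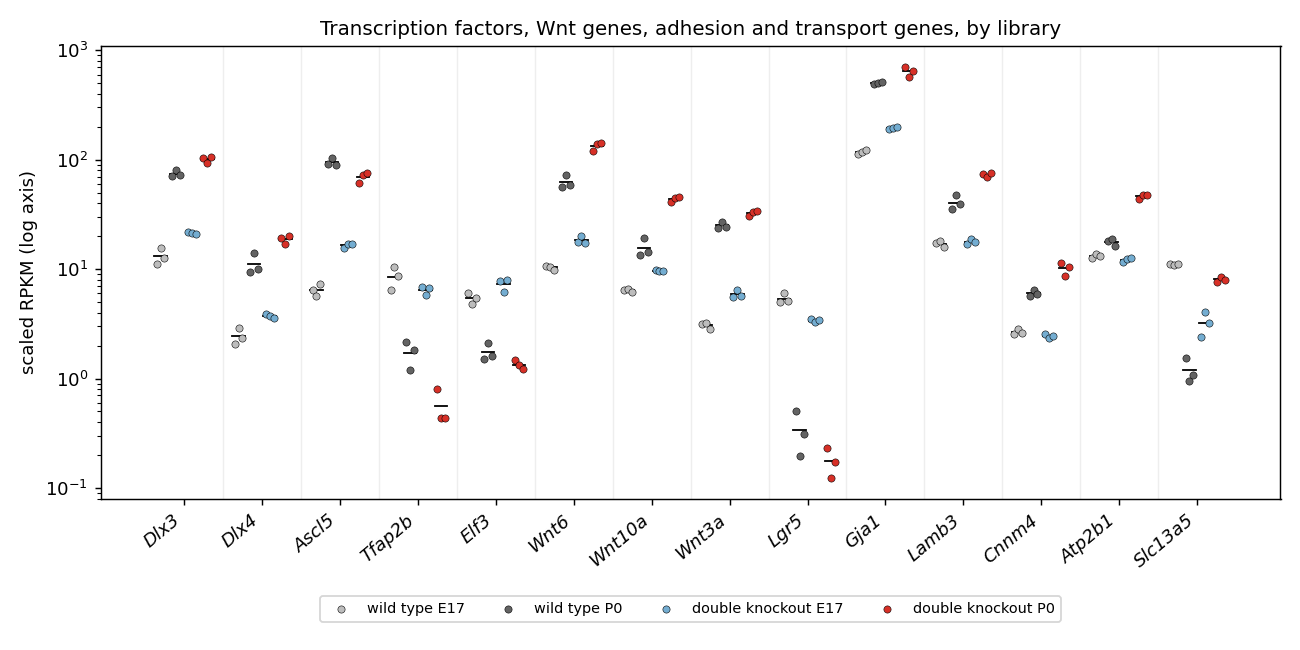
Scaled RPKM (log axis) of 14 genes in each of the 12 libraries, with points for libraries and bars for group means. Dlx3, Dlx4, Wnt6, Wnt10a, Wnt3a, Gja1 and Lamb3 are higher at P0 in both genotypes, Tfap2b, Elf3 and Lgr5 are lower, and Slc13a5 is higher at P0 in the double knockout (7.64–8.49) and lower at P0 in wild type (0.948–1.55).

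The Wnt ligand genes Wnt6, Wnt10a and Wnt3a rose in the double knockout epithelium, while Lgr5 and Rspo3 fell. Wnt6 was at 17.8, 20.2 and 17.1 at E17 and at 119, 139.6 and 141 at P0, a 7.25-fold rise (log2 2.79 ± 0.08, adjusted p = 2.3e-07). Its neighbour on chromosome 1, Wnt10a (chr1:74771892-74785322 and chr1:74791516-74804179), went from 9.81, 9.55 and 9.54 to 41.4, 44.8 and 45.7 (log2 2.08 ± 0.05). WNT10A acts in tooth formation, and mutations of its human counterpart cause missing teeth. Wnt10a rose less in wild type (1.15), with a difference of 0.93 ± 0.14 (adjusted p = 1.9e-04). For Wnt6 the difference was 0.31 ± 0.14 (adjusted p = 0.083). Wnt3a went from 5.60–6.46 to 30.3–34.2 (log2 2.28 ± 0.07) and had a log2 change of 2.68 in wild type.

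Among receptors and modulators, Fzd5, a Frizzled receptor, rose by 0.74, Wif1, a secreted Wnt inhibitor, by 0.55, and Vangl2, a planar polarity protein, by 1.95 on the log2 scale. Lgr5, a receptor of R-spondins, fell from 3.46, 3.27 and 3.41 to 0.232, 0.123 and 0.172, and Rspo3, one of these ligands, from 1.27–1.35 to 0.0664–0.0877. Both also fell in wild type (-2.26 and -1.62). Tcf7, a nuclear partner of beta-catenin, had values of 19.4, 21.3 and 20.2 at E17 and 18.4, 12.8 and 15.6 at P0, and it was not called under every scaling (log2 -0.37 ± 0.12). In wild type it rose from 10.4–14.4 to 25.4–27.9, and the difference between genotypes was -1.46 ± 0.17 (adjusted p = 3.4e-05). In all, 6 of 15 tested Wnt members rose and 3 fell, where 25.5% of all tested genes rose and 27.8% fell. In wild type 10 rose and 3 fell, where the shares over all genes were 32.7% and 17.4%.

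Of the BMP and TGF-beta list, Tgfb2, a TGF-beta ligand, rose from 9.74–10.99 to 33.98–34.6 (log2 1.64 ± 0.05) and Lefty1, an extracellular inhibitor of Nodal, from 1.36–1.68 to 4.79–6.42 (log2 1.34 ± 0.10). Gdf11, a ligand of the same family, fell by 0.37. The list had 7 tested members, of which 4 rose and 2 fell (background 25.5% and 27.8%). In the Hedgehog list 2 of 6 tested members were called under the 3 scalings, where 53.3% of all tested genes were. Too few members were tested to compare these shares. Gli1, a direct Hedgehog target, was at 25.97, 33.1 and 28.7 at E17 and at 26.8, 26.2 and 27.8 at P0 and was not called (log2 -0.11 ± 0.08, adjusted p = 0.27). Rab23, a negative regulator of the pathway, rose by 1.13 and Gli2 fell by 0.55 on the log2 scale.

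Lamb3, Dst and Ntn4, genes of epithelial attachment to the basement membrane, rose. Lamb3 encodes a laminin chain that anchors epithelia through hemidesmosomes, and its human counterpart is mutated in a form of amelogenesis imperfecta. Lamb3 was at 17.1, 18.7 and 17.6 at E17 and at 74.3, 68.96 and 75.3 at P0 (log2 1.97 ± 0.05, adjusted p = 1.4e-07). Its stages did not overlap, as for 70.2% of all tested genes. In wild type Lamb3 was at 17.3, 18.05 and 15.9 at E17 and at 35.2, 47.5 and 39.01 at P0, and the change differed between genotypes by 0.78 ± 0.13 (adjusted p = 3.6e-04). Dst, which encodes a plakin that links keratin to hemidesmosomes, rose by 1.45, and Ntn4, a laminin-related basement membrane gene, by 1.71. Over the whole basement membrane list 6 of 15 tested members rose and 7 fell (background 25.5% and 27.8%). Those that fell included the fibronectin gene Fn1 (-1.43 ± 0.17) and the mesenchymal laminin genes Lama2 (-0.56) and Lama4 (-1.07).

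Of the cell contact genes Gja1, Perp and Cd24a rose. Gja1 encodes connexin 43, a gap junction protein whose mutations alter enamel, and it went from 192, 196 and 197 to 711, 573 and 643 (log2 1.71 ± 0.08, adjusted p = 1.6e-06). Gja1 rose more in wild type (2.08), with a difference of -0.37 ± 0.10 (adjusted p = 0.0086). Perp, a desmosomal protein gene needed for enamel, went from 221, 176 and 207 to 379, 406 and 412 (log2 0.99 ± 0.09), and Cd24a, a surface glycoprotein gene, from 208–219.8 to 624–716. Of 15 tested junction and surface genes 8 rose and 6 fell (background 25.5% and 27.8%), with a median of 0.49. In wild type 10 rose and 3 fell, with a median of 0.34. By the test of the difference the stage change was lower in the double knockout for 8 of the 15 genes and higher for 1. Over all 2231 genes tested for that difference, 21.3% were lower and 8.56% higher by the 3 scalings. Erbb3, an epidermal growth factor receptor family gene, fell by 0.82.

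The list of enamel ion transport and amelogenesis imperfecta genes had 8 rises and 2 falls among 12 tested of 18 listed (background 25.5% and 27.8%). It is not made of transport genes alone, since it holds Lamb3, Gja1 and Perp, which rose and are counted in the basement membrane or junction lists as well. Cnnm4, a magnesium transporter gene whose human counterpart is mutated in Jalili syndrome with amelogenesis imperfecta, rose from 2.55, 2.36 and 2.46 to 11.4, 8.65 and 10.4 (log2 1.68 ± 0.09). Atp2b1, a plasma membrane calcium pump gene, went from 11.6, 12.5 and 12.6 to 44.1, 47.97 and 47.8 (log2 1.85 ± 0.05), against 12.7–13.6 to 16.2–18.7 in wild type, a difference of 1.46 ± 0.08 (adjusted p = 1.4e-07). Slc40a1, the iron exporter ferroportin, fell from 9.46–9.68 to 3.42–3.45.

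Slc13a5, a sodium-coupled citrate transporter gene whose human counterpart is mutated in a syndrome with enamel defects, moved in opposite directions in the genotypes. In the double knockout it was at 2.39, 4.06 and 3.19 at E17 and at 7.64, 8.49 and 7.99 at P0 (log2 1.12 ± 0.13, adjusted p = 2.1e-04). In wild type it was at 11.02, 10.9 and 11.2 at E17 and at 1.55, 0.948 and 1.07 at P0 (log2 -2.47). The difference of 3.59 ± 0.18 (adjusted p = 9.2e-08) was exceeded only by that of Stac3 among the 2231 genes tested for it.

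Most listed genes of the secretory pathway rose. The endoplasmic reticulum folds and exports secreted proteins, and XBP1 is a transcription factor that enlarges it. Of 24 listed members, all of which were tested, 15 rose and 1 fell, against 5 and 3 in wild type, and the background of rising genes was 25.5%. The median was 0.26 against 0.06 in wild type. The ER stress response element is a promoter motif of this pathway, and the 3 members of the list that carry it, all of which rose, are shown for that reason. The stretches below precede the RefSeq start of each gene on GRCm38.p6, read 5′ to 3′ on the gene's strand, with matches on either strand in capitals. Bases that the GENCODE gene model already covers were left off.
Hsp90b1, chr10:86705510-86705694, minus strand: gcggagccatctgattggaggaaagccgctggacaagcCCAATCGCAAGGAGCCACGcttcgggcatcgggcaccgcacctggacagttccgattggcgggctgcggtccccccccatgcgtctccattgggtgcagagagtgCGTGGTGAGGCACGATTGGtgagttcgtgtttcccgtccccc
Derl3, chr10:75893148-75893397, plus strand: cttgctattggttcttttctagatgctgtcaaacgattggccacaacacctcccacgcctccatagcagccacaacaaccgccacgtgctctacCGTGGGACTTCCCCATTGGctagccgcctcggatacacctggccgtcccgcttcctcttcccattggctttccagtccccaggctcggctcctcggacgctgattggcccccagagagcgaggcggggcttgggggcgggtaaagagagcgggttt
Canx, chr11:50325674-50325923, minus strand: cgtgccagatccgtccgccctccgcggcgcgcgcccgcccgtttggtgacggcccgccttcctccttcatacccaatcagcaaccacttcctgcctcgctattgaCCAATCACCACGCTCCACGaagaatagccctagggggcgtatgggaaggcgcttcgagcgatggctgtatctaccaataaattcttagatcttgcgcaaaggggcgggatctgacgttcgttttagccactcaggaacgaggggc

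The motif searched was CCAAT, then 9 bases of any kind, then CCACG, on both strands, in the 250 bases before each start. It occurred in 37 of 32851 promoters (0.113%) of the RefSeq table, and in 3 of the 24 list members, all of which matched the table. The former counts promoters and the latter counts genes with any matching promoter, so the shares are not in the same unit. The first match of Hsp90b1 began 212 bases before the start and the other 107 bases before it. A match describes these letters and does not show that a factor was bound. Hsp90b1, the chaperone GRP94, was at 255, 259 and 259.6 at E17 and at 396, 390.4 and 399 at P0 (log2 0.62 ± 0.04, adjusted p = 1.0e-05). Canx, the lectin chaperone calnexin, went from 92.5–96.6 to 106–119 (log2 0.26 ± 0.05), and Derl3, a protein of retrotranslocation, from 0.556–1.14 to 2.44–2.52 (log2 0.91 ± 0.12).

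Xbp1 itself was at 42.1, 43.1 and 44.04 at E17 and at 75.9, 78.8 and 80.8 at P0, a 1.82-fold rise (log2 0.85 ± 0.04, adjusted p = 2.0e-06). In wild type it was at 46.6, 45.9 and 43.6 and at 41.3, 40.7 and 39.8, and the difference between genotypes was 1.01 ± 0.06 (adjusted p = 1.8e-07). The largest rise of the list was that of P4ha2, a subunit of the prolyl hydroxylase that matures collagen, from 20.1, 22.4 and 21.2 to 103, 98.3 and 113 (log2 2.25 ± 0.06, adjusted p = 1.8e-07). In wild type P4ha2 was at 32.5–35.5 at E17 and at 30.9–42.4 at P0, and the difference was 2.18 ± 0.13. P4ha1, the gene of another such subunit, rose from 24.1–26.3 to 38.5–40.6 in the double knockout and fell from 32.4–35.05 to 20.996–22.2 in wild type. Os9, a lectin of ER-associated degradation, rose by 1.46, Uggt1, a glycoprotein folding sensor, by 0.81, Ckap4, a sheet protein of the ER, by 0.59, and Copa, a coat protein of transport vesicles, by 0.58. For 9 of the 24 genes the stage change was higher in the double knockout than in wild type, and for 1 it was lower. Over all 2231 genes tested for that difference the background was 8.56% higher and 21.3% lower by the 3 scalings.

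Col1a1, Serpinf1 and P4ha2 of the odontoblast and bone list rose in the double knockout, while Col3a1, the type VI collagen genes and Prrx1 fell. Col1a1, which encodes the main chain of type I collagen of bone and dentin, was at 773, 951 and 838 at E17 and at 1641, 2654 and 2299 at P0. The P0 value of replicate 1 was the lowest of the 3, and the stages did not overlap, as for 70.2% of all tested genes. The rise was 2.57-fold (log2 1.34 ± 0.17, adjusted p = 3.2e-04). In wild type Col1a1 went the other way, from 2065, 2370.0 and 2244 at E17 to 508, 478 and 481 at P0 (log2 -2.18). The difference between genotypes was 3.52 ± 0.20 (adjusted p = 1.4e-07).

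Serpinf1, which encodes the anti-angiogenic protein PEDF that is needed for bone mineralisation, was at 65.04, 70.5 and 68.2 at E17 and at 271, 347 and 333 at P0 (log2 2.20 ± 0.09, adjusted p = 1.0e-06), against 76.4–86.1 and 97.4–113 in wild type. Dcn, the collagen-binding proteoglycan decorin, went from 144, 108 and 137 to 185, 218 and 202 (log2 0.64 ± 0.11) and fell in wild type (-1.30). Sparc, a matrix protein gene of bone and basement membranes, was at 705, 721 and 729.6 at E17 and at 656, 1066 and 924 at P0 and was not called (adjusted p = 0.18), though without P0 replicate 1 its log2 change was 0.47 (adjusted p = 0.0024). In wild type Sparc fell from 1102–1172 to 334–426, and the difference was 1.82 ± 0.20. The collagen propeptidase gene Adamts14 and the matrix protein gene Aebp1 rose in the double knockout (log2 0.82 and 0.34) and fell in wild type (log2 -0.95 and -0.71).

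Other mesenchymal genes fell in both genotypes. Col3a1, type III collagen, was at 436, 339 and 423 at E17 and at 60.8, 47.8 and 49.8 at P0 (log2 -2.89 ± 0.12, adjusted p = 9.7e-07), and Prrx1, a homeobox gene of craniofacial mesenchyme, went from 34.3, 30.8 and 32.5 to 4.37, 3.26 and 3.80 (log2 -2.81 ± 0.09). The type VI collagen genes fell together, Col6a1 from 72.8–84.2 to 13.3–16.2, Col6a2 from 88.6–95.04 to 18.1–24.3 and Col6a3 from 47.97–60.2 to 5.60–12.7. Mfap4, a microfibril protein gene, fell 17.2-fold, from 92.2, 81.4 and 87.4 to 6.09, 4.42 and 4.67. Twist2, a mesenchymal basic helix-loop-helix gene, fell from 14.9–18.4 to 1.62–2.94 and more than in wild type, with a difference of -1.85 ± 0.20 (adjusted p = 2.2e-05). Col13a1, a transmembrane collagen gene, fell by 2.46, and Mmp11, a stromal metalloproteinase gene, fell by 1.32.

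Of 24 tested members of the list of mesenchyme and fibrous matrix 7 rose and 13 fell in the double knockout, against 3 and 19 in wild type. Their summed level was 2283–2344 at E17 and 2758–3730.3 at P0 in the double knockout, and 3734–4229.7 and 1235–1391 in wild type, with Col1a1 the main contributor. Of the odontoblast and bone list 7 of 10 tested members rose and 2 fell, against 3 and 6 in wild type. The background was 25.5% rising and 27.8% falling in the double knockout and 32.7% and 17.4% in wild type. Both lists hold Col1a1 and Serpinf1. In these bulk libraries fewer cells of a type and less RNA per cell cannot be told apart, and the part of adhering mesenchyme in the epithelial changes was not tested.

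**Figure D2:**
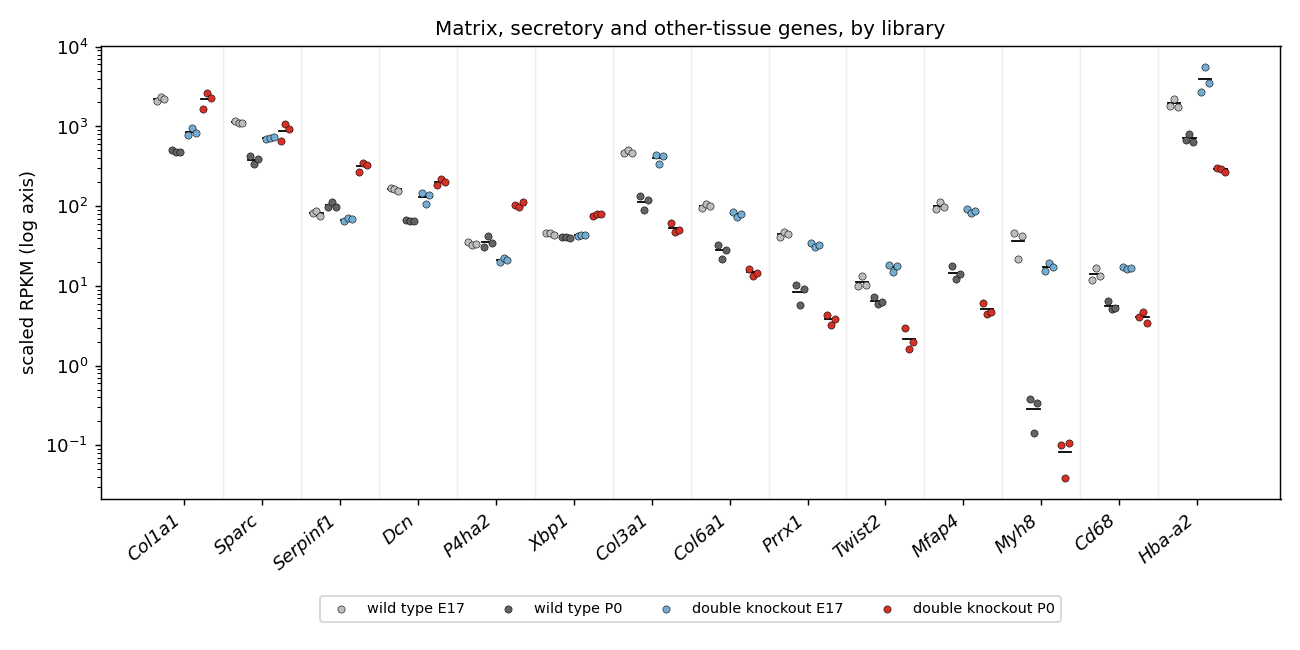
Scaled RPKM (log axis) of 14 matrix, secretory and other-tissue genes in each of the 12 libraries, with points for libraries and bars for group means. Col1a1, Serpinf1, Dcn, P4ha2 and Xbp1 are higher at P0 than at E17 in the double knockout, while Col3a1, Col6a1, Prrx1, Twist2, Mfap4, Myh8, Cd68 and Hba-a2 are lower at P0 in both genotypes.

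Many cell cycle genes fell in the double knockout. Of 33 listed members, all tested, 18 fell and 1 rose, Rpa1, a replication protein (0.26), against a background of 27.8% falling. In wild type 14 rose and 1 fell. The median log2 change was -0.36 in the double knockout and 0.13 in wild type. By the test of the difference under the 3 scalings, the stage change was lower in the double knockout than in wild type for 22 of the 33 genes, against a background of 21.3% lower over all genes tested for it.

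Cdk1, the kinase that drives entry into mitosis, was at 79.02, 83.9 and 82.4 at E17 and at 45.2, 44.1 and 45.9 at P0, with little spread within a stage (log2 -0.85 ± 0.04, adjusted p = 2.0e-06). In wild type it was at 72.7, 63.1 and 67.1 at E17 and at 86.4, 82.9 and 85.5 at P0, and the difference was -1.17 ± 0.07 (adjusted p = 2.1e-07). The helicase subunit genes Mcm3 and Mcm6, which unwind DNA at replication origins, went from 30.7–31.7 to 15.2–17.1 and from 46.6–48.2 to 27.1–29.3. Prim1, the primase subunit gene, fell by 0.86, and Dtl, a ubiquitin ligase adaptor of S phase, fell by 0.73. Aurkb, a mitotic kinase gene, fell by 0.54 and rose in wild type (0.42). Cdk4, the kinase of the G1 phase, fell by 0.42 and rose in wild type (0.24). Several mitotic genes were not called in the double knockout, among them Nek2 (-0.05), Kif14 (-0.04) and Cenpf (0.02), whose log2 changes in wild type were 1.06, 0.62 and 0.67.

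E2F factors are known to drive genes of the S phase through short GC-rich sites, and 2 promoters with such letters are shown for genes that fell. They are given as above, with the letters TTTCCCGC, TTTGGCGC, TTTCGCGC or TTTGCCGC on either strand in capitals. In Mcm6 a pair of overlapping matches on opposite strands forms one run.
Mcm6, chr1:128359706-128359955, minus strand: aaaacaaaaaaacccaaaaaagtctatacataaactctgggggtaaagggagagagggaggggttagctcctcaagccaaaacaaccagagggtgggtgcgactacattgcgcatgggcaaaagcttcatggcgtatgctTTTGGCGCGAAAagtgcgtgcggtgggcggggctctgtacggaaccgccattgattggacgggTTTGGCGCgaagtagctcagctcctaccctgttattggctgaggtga
Cdk1, chr10:69352939-69353162, minus strand: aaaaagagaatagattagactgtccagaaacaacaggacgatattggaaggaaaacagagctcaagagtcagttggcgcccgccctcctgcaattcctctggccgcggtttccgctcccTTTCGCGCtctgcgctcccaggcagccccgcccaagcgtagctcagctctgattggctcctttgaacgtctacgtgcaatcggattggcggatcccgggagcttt
One of these 4 motifs occurred in the 250 bases before the start in 611 of 32851 promoters (1.86%), and in 6 of the 30 cell cycle genes matched to the table (Cdk1, Cdk2, Dtl, E2f7, Mcm6 and Tmpo). Of these, Cdk1, Dtl, Mcm6 and Tmpo fell, and Cdk2 (-0.20) and E2f7 (0.04) were not called in all 3 scalings. As for the motif above, the share over the table counts promoters and that of the list counts genes.

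**Figure D3:**
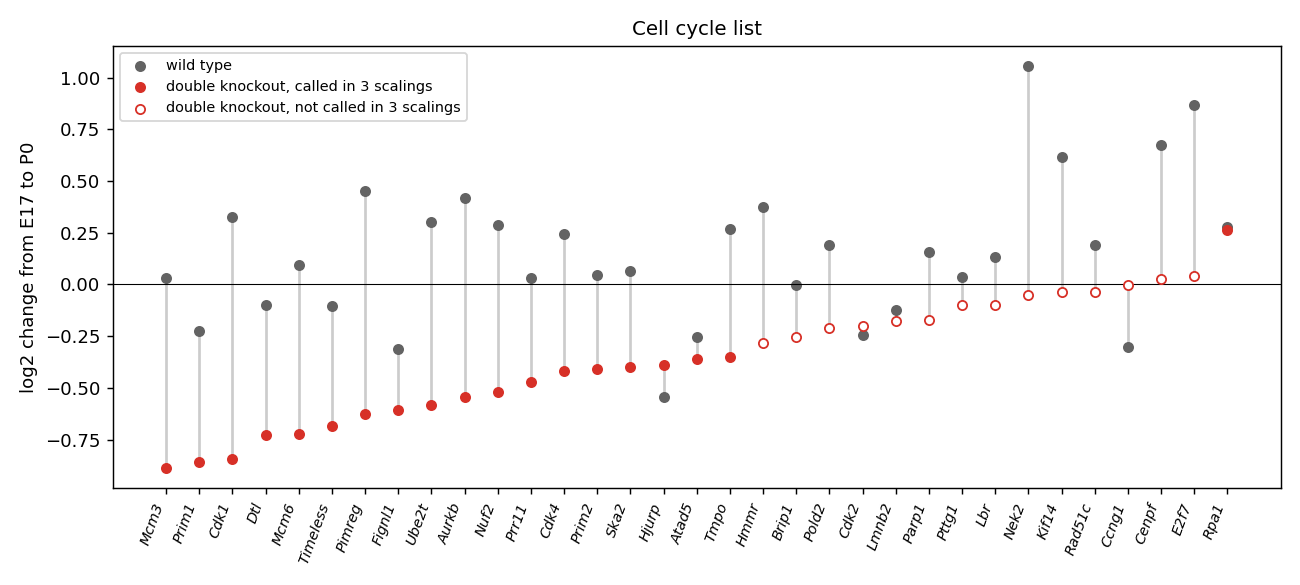
Log2 change from E17 to P0 of the 33 cell cycle genes, with red circles for the double knockout (filled where called in 3 scalings) and grey circles for wild type. The double knockout values run from -0.89 (Mcm3) to 0.26 (Rpa1) and lie below the wild-type value for most of the genes.

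Of 27 tested chromatin genes 6 rose and 5 fell, where 25.5% of all tested genes rose and 27.8% fell. In wild type 17 of the 27 rose, where 32.7% of all tested genes did. By the test of the difference 12 had a lower stage change in the double knockout (background 21.3%). Nap1l1, a histone chaperone gene, fell from 171–179 to 114–119.9 and rose in wild type (0.27). Hmga2, an architectural chromatin protein of growing embryonic tissue, fell by 0.90, and Rnf2, a Polycomb ubiquitin ligase, fell by 0.48. Npm1, a nucleolar chaperone, fell from 547–572 to 364–382 (log2 -0.59 ± 0.05). It was the falling member among 15 genes of translation and ribosomes, of which 1 rose, the elongation factor gene Eef2 (0.26). Of 21 genes of oxidative metabolism 2 rose, Cs, which encodes citrate synthase (0.44), and Atp5g1, which encodes an ATP synthase subunit (0.35). With upper-quartile scaling alone 4 were called higher and 3 lower.

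Dusp6, Phlda1 and Spred2, targets and inhibitors of receptor tyrosine kinase signalling, fell in the double knockout. Dusp6, the ERK phosphatase that is itself induced by FGF signalling, was at 38.4, 39.9 and 39.9 at E17 and at 17.6, 19.5 and 20.4 at P0 (log2 -1.005 ± 0.06, adjusted p = 4.4e-06). In wild type it was at 26.7, 29.8 and 26.8 and at 36.2, 32.7 and 34.5, and the difference was -1.31 ± 0.09 (adjusted p = 3.3e-07). Phlda1, another gene induced by growth factors, went from 30.8, 33.9 and 31.5 to 18.3, 15.1 and 16.9 and rose in wild type from 13.4–17.1 to 30.3–32.5, a difference of -1.86 ± 0.12 (adjusted p = 3.2e-07). Spred2, an inhibitor of RAS signalling, fell by 0.46, and the ligand gene Fgf18 fell from 1.85–3.57 to 0.267–0.416 in the double knockout and also fell in wild type (-2.29). In all, 7 of 11 tested members of the FGF and ERK list fell (background 27.8%), against 2 falls and 3 rises in wild type (background 17.4% and 32.7%).

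Edar, the receptor of ectodysplasin, which shapes tooth cusps, was at 3.80, 4.51 and 3.87 at E17 and at 0.524, 0.602 and 0.678 at P0 (log2 -1.66 ± 0.08, adjusted p = 1.9e-06). The wild-type libraries had 2.43–3.14 at E17 and 2.54–3.39 at P0, and the difference was -1.73 ± 0.14 (adjusted p = 1.4e-06). Ccn2, a matricellular gene induced by YAP and TGF-beta, fell from 20.6, 24.01 and 22.8 to 10.2, 8.72 and 10.3 and rose in wild type (0.65), a difference of -1.78 ± 0.12. The potassium channel subunit gene Kcnmb4 fell from 17.6–22.2 to 6.86–7.48 and rose in wild type (0.71). Its antisense partner Kcnmb4os2 had the same pattern (-1.48 and 0.59). The 2 genes share 693 exon bases, 20.8% of those of Kcnmb4 and 34.2% of those of Kcnmb4os2. Reads of that stretch cannot be told apart because the counting of strand is not given. Of 14 tested immediate-early genes 4 rose and 8 fell (background 25.5% and 27.8%), against 8 and 3 in wild type (background 32.7% and 17.4%). Dusp6 and Phlda1 are members of this list too. Gadd45b, a stress and TGF-beta response gene, rose from 18.6–20.9 to 43.6–48.7.

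Igf1, Igfbp3, Grb10 and Igf2bp1 of the insulin-like growth factor axis fell. Igf1, the ligand, went from 19.03, 18.3 and 18.9 to 5.37, 4.25 and 4.60 (log2 -1.79 ± 0.07), and Igfbp3, which binds it outside cells, from 99.4, 90.7 and 97.5 to 37.8, 31.7 and 34.7 (log2 -1.44 ± 0.07). Grb10, an imprinted gene whose product restrains the insulin and IGF receptors, was at 95.9, 93.2 and 94.8 at E17 and at 12.3, 7.09 and 9.98 at P0, a 9.68-fold fall (log2 -3.18 ± 0.16, adjusted p = 2.1e-06). Grb10 fell less in wild type (-2.35), with a difference of -0.83 ± 0.23 (adjusted p = 0.012), and for Igfbp3 the difference was -1.12 ± 0.13. Igf2bp1, an RNA-binding protein gene of embryonic tissue, fell by 1.57. These were the 4 falling members of 7 tested (background 27.8%), and with upper-quartile scaling alone 6 were called lower (background 35.8%).

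Genes of cornifying epithelium, which covers the oral surface, fell. Serpinb3a, a serpin of squamous epithelium, was at 77.6, 21.7 and 60.96 at E17 and at 0.0127, 0.0490 and 0 at P0, Alox12b, a lipoxygenase of the skin barrier, went from 14.1, 4.10 and 11.6 to 0, 0.0325 and 0, and Serpinb12 from 30.01, 14.9 and 26.1 to 1.74, 1.15 and 1.14. E17 replicate 2 was the lowest of the E17 libraries for each of these 3 genes. That their stages did not overlap was a condition of the rule that named them. With and without that library the log2 changes were -5.56 and -6.10 for Serpinb3a, -3.29 and -3.77 for Alox12b, and -3.35 and -3.64 for Serpinb12. In the list 6 of 7 tested members of 15 fell (background 27.8%). The summed level of the list was 159–258 at E17 and 104–106 at P0 in the double knockout and 134–164 and 89.7–94.5 in wild type. Serpinb2 fell too, from 2.61–5.47 to 0.111–0.312. Members of this serpin cluster on chromosome 1 are close copies, so their separate values are uncertain. Serpinb5 (maspin), a serpin of the same cluster, was at 20.8–27.02 and 25.5–28.4 and was not called, and Serpinb8 rose (0.51).

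Most tested markers of skeletal muscle fell in both genotypes. The embryonic and perinatal myosin genes Myh3 and Myh8 went from 15.1, 8.63 and 13.5 to 0.0409, 0.0220 and 0.0751 and from 15.5, 19.1 and 17.03 to 0.0999, 0.0388 and 0.108. Tnnt2, a troponin gene, fell from 6.49–11.7 to 0.165–0.327, Tnni1, the gene of slow troponin I, from 15.5–19.7 to 2.04–3.10, and Myog, the myogenic factor gene, from 3.61–7.72 to 0–0.0353. In all 13 of 16 tested members of 23 fell (background 27.8%), 1 rose, and Myh4 and Cacna1s were not called, while 14 fell in wild type (background 17.4%). The summed level of the list was 246–265 at E17 and 70.6–98.97 at P0. At E17 the wild-type libraries had higher levels of each of these named myosin, troponin and myogenic factor genes. Their levels were 39.1–58.4 for Myh3, 21.97–45.7 for Myh8, 22.4–42.4 for Tnnt2, 42.5–82.1 for Tnni1 and 14.1–22.2 for Myog. The myosin genes lie in one cluster of close copies on chromosome 11, so reads could be split between them.

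The member that rose was Stac3, the gene of an adaptor of the voltage sensor of muscle (chr10:127501686-127508823), which was at 1.52, 1.49 and 1.28 at E17 and at 23.4, 26.7 and 27.02 at P0. The rise was 17.9-fold (log2 3.46 ± 0.07, adjusted p = 5.1e-08). Wild-type libraries had it at 4.53, 2.89 and 5.33 at E17 and at 1.44, 3.05 and 2.06 at P0, and the difference of 4.18 ± 0.26 (adjusted p = 2.1e-07) was the highest of the 2231 genes tested. Of its neighbours on chromosome 10, R3hdm2 was at 16.8–17.7 at E17 and at 20.4–21.7 at P0, and Ndufa4l2 fell from 67.7–93.3 to 21.4–31.6.

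Most tested markers of vessels, immune cells and nerve fell, and so did both alpha globin genes. The alpha globin genes Hba-a1 and Hba-a2 were at 2239, 4424 and 2796 and at 2728, 5657 and 3468 at E17, highest in replicate 2, and at 762, 580.2 and 637 and at 300.4, 294 and 272 at P0. Their copies are near identical, so the split of reads between them is uncertain. Without E17 replicate 2 the log2 changes were -1.93 for Hba-a1 and -3.41 for Hba-a2, against -2.20 and -3.70 with it. The red cell list had 3 tested members, and the other one, Nprl3, a gene beside the alpha globin cluster, rose from 7.17–7.48 to 8.87–9.72 (log2 0.31 ± 0.05, adjusted p = 0.0012). Cd68, a macrophage gene, went from 16.5–17.2 to 3.42–4.66, Fcer1g, an Fc receptor subunit gene, from 12.5–13.1 to 3.68–4.71, and Lyz2, a lysozyme gene of myeloid cells, from 50.1–57.9 to 22.04–28.4. Of 20 tested immune genes 16 fell (background 27.8%), and the summed level was 127–141 at E17 and 51.8–62.9 at P0.

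Ngfr, a neurotrophin receptor gene of glia and mesenchyme, fell from 15.9, 17.1 and 16.3 to 3.48, 2.69 and 3.41 and less in wild type (-0.71), a difference of -1.36 ± 0.14. S100b, a glial gene, fell by 1.27, and Map2, a neuronal cytoskeleton gene, fell by 0.94, in a list where 7 of 9 tested members fell (background 27.8%). Of 10 tested endothelial and pericyte genes 7 fell (background 27.8%), among them Cd34 (-0.88) and Tmem100 (-1.31). The summed level of that list was 109–117 at E17 and 121–123 at P0, so it was higher at P0. The 1 member that rose, Unc5b, a netrin receptor of vessels, went from 17.99–19.05 to 62.8–66.2 in the double knockout and also rose in wild type (1.49). Its gain was larger than that of the sum, so the rest of the list together was lower at P0. How far a fall of these markers between the stages enters the changes of the epithelial genes was not tested.

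**Figure D4:**
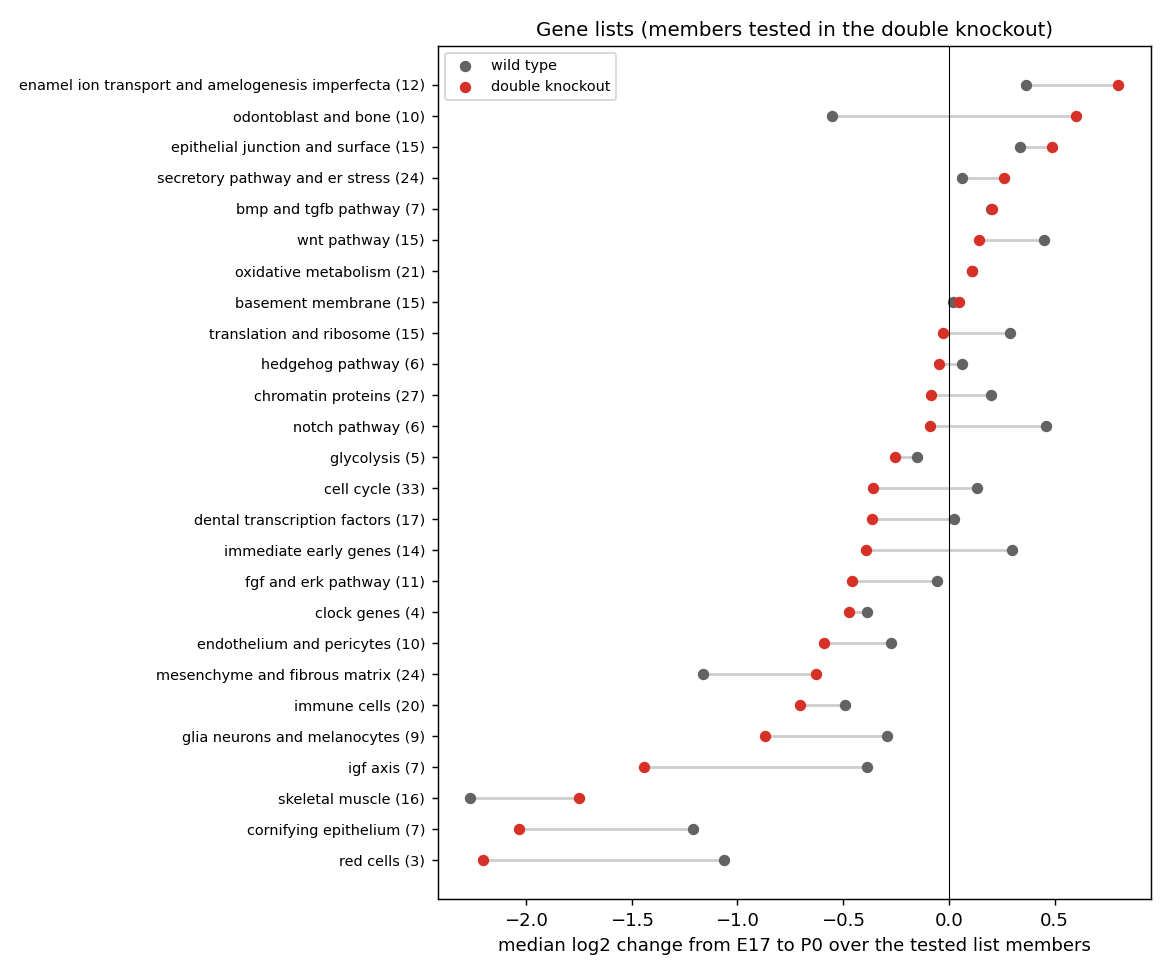
Median log2 change from E17 to P0 over the tested members of each of 26 gene lists (number tested in brackets), in the double knockout (red) and in wild type (grey). The cell cycle median is -0.36 in the double knockout and 0.13 in wild type, and the odontoblast and bone median is 0.60 and -0.55.

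The largest rises by the naming rule, beyond those above, were of genes with varied roles. Tspan8, a tetraspanin gene, went from 1.45, 0.608 and 1.42 to 21.8, 26.9 and 26.9 (log2 3.62 ± 0.17, adjusted p = 1.8e-06), against 1.21–2.13 to 5.32–7.54 in wild type. Pi15, a secreted peptidase inhibitor gene, went from 1.03–1.23 to 18.8–20.1, and Nudt4, a diphosphoinositol phosphohydrolase gene, from 71.2, 70.6 and 70.8 to 557, 547 and 551. The log2 change of Nudt4 was 2.94, and 2.88 in wild type. Cdh23, an atypical cadherin gene, Cdk18, a cyclin-dependent kinase gene, Ppp1r12b, a myosin phosphatase subunit gene, Ildr2, a tight junction protein gene, and Plxnc1, a semaphorin receptor gene, rose by 3.31, 3.22, 3.22, 3.20 and 2.82. Slc41a2, a magnesium transporter gene, Ggt1, a glutathione hydrolase gene, Coro6, a coronin gene, Sgk3, a kinase gene, and Myo19, the gene of a mitochondrial myosin, rose by 2.68, 2.64, 2.63, 2.62 and 2.48. A predicted gene, Gm40193 (chr11:70532232-70532939, minus strand), was chosen after its values were seen. It was at 0.139, 0.235 and 0.0957 at E17 and at 65.6, 94.2 and 88.2 at P0 (log2 6.16 ± 0.13) and went from 0–0.171 to 9.30–16.003 in wild type.

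Of the largest falls not yet described, Arg1, the urea cycle enzyme arginase 1, which is also made by epithelia and macrophages, went from 64.3, 12.5 and 47.9 to 0.166, 0.143 and 0.0611. E17 replicate 2 was the lowest, and without it the log2 change was -5.65 against -4.96. Angptl1, an angiopoietin-like gene, fell from 6.94–12.1 to 0.476–0.882, and Lypd1, a Ly6 family gene, from 8.62–10.1 to 0.543–0.805. Lypd1 fell less in wild type, from 4.40–6.53 to 2.70–3.69, and its difference was -2.14 ± 0.18 (adjusted p = 2.4e-06). Nts, the gene of the peptide neurotensin, was at different levels in the genotypes. It was at 43.2–53.95 at E17 and 70.3–77.1 at P0 in the double knockout and at 3.05–3.16 and 2.44–3.21 in wild type.

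Over 2122 genes tested in both genotypes the stage changes had a correlation across genes of 0.747, where genes are not independent replicates. In wild type 2165 genes were tested and 1334 (61.6%) were called, 708 higher (32.7%) and 626 lower (28.9%), with 1120 and 376 without scaling and 769 and 583 with median-of-ratios scaling. Under the 3 scalings 708 rose (32.7%) and 376 fell (17.4%), of which 76 rose (3.51%) and 148 fell (6.84%) by at least 1 on the log2 scale. Of the genes called in both genotypes under the 3 scalings, 362 rose in both, 268 fell in both, 21 rose in the double knockout and fell in wild type, and 64 fell in the double knockout and rose in wild type. For each of these 85 genes with opposite directions the difference itself also passed. The difference between the genotypes' stage changes was called for 960 of 2231 genes (43.0%) at an adjusted p under 0.05, and for 666 (29.9%) under the 3 scalings, 191 higher (8.56%) and 475 lower (21.3%) in the double knockout. The split depended on the scaling, with 191 higher and 1021 lower without scaling and 470 and 475 with median-of-ratios scaling, and the median difference was -0.06, -0.28 without scaling and 0.01 with median-of-ratios scaling. A difference of at least 1 on the log2 scale was met by 130 genes (5.83%), 69 higher (3.09%) and 61 lower (2.73%) in the double knockout. A factor common to all libraries of one table cancels in this difference for genes at high levels. At low levels it cancels only in part, because 1 was added before the logarithm.

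**Figure D5:**
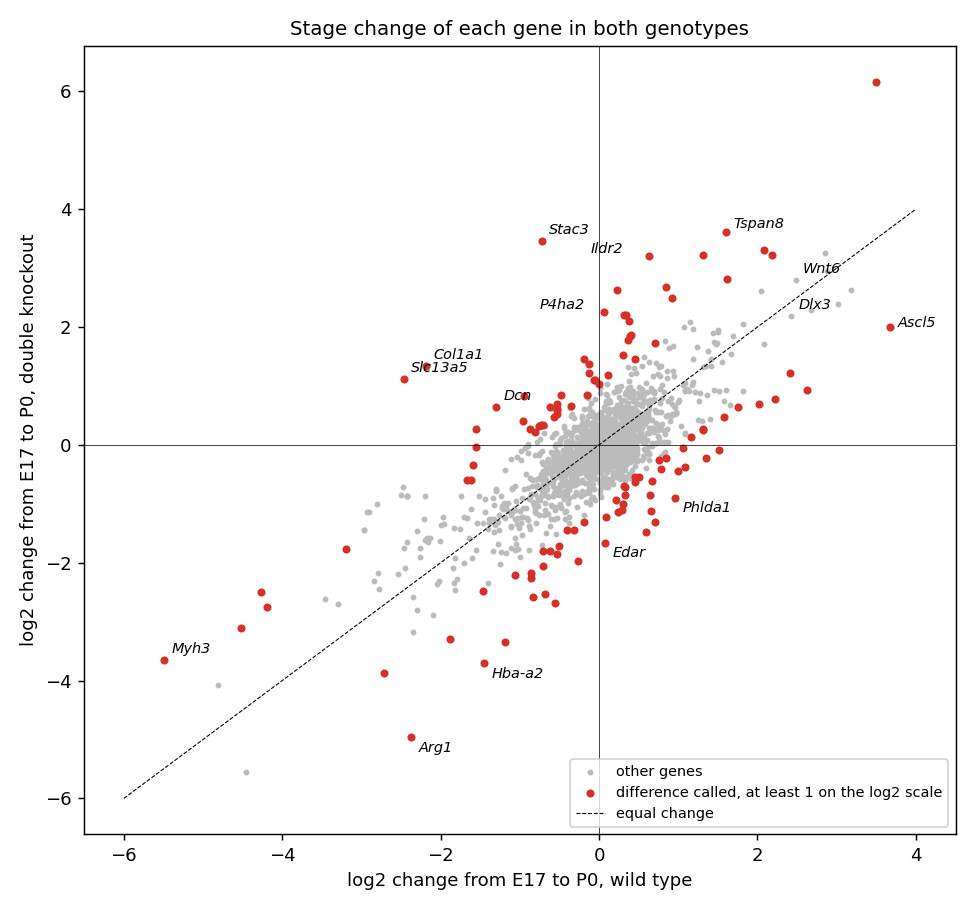
Log2 change from E17 to P0 in wild type (x axis) and in the double knockout (y axis) for each gene tested in both, with a dashed line for equal change and in red the genes whose difference was called under 3 scalings and reached 1. Stac3, Col1a1 and Slc13a5 lie above 0 in the double knockout and below 0 in wild type, and Dlx3 and Wnt6 lie near the line.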

How the data were processed

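RNA of molar dental epithelium was sequenced, and per the file headers the authors deposited, for each stage, a table of values per transcript and the count of alignments per library. The unit is not stated. It was read from the deposited values as RPKM, since for single-transcript genes 90.2% to 100% of low values were whole multiples of 1 read within 0.1 of a read. Per the submitters' processing notes the authors used Partek on mm10. Not given in the sources used here were the aligner, the annotation and how strand was counted.

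RPKM of the 15870 transcripts in both tables were summed per gene symbol, giving 4546 genes, and each library was scaled by the upper quartile (the 75th percentile) of these genes. Genes with at least 1 scaled RPKM in 3 of 6 libraries (3 of 12 for the difference between genotypes) were tested on log2(scaled RPKM + 1) with limma 3.58.1 (trend, two-sided, Benjamini-Hochberg over all genes tested) in R 4.3.3, which was checked on simulated data. Adding 1 was the pseudocount. Positions come from GENCODE M21, and sequences from RefSeq on GRCm38.p6.

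The members, gene lists and tests were chosen with earlier results of these data known. Genes were named by a rule: the 15 largest rises and 15 largest falls among genes past an adjusted p of 0.05 whose groups did not overlap and whose higher mean was at least 1, from each list the 4 tested genes of smallest p, a fixed set, and the 6 largest differences between genotypes in each direction. Predicted, micro-RNA, olfactory receptor and pseudogene symbols were not named, except Gm40193. The rule named 125 genes. Another 37 genes (Bcl11a, Dcn, Edar, Stac3's neighbours and others), and Lama2, Lama4, Rpa1, Nek2, Kif14, Cenpf, Cdk2, E2f7 and Tmpo, were picked with their values known. Alternatives were no scaling, median-of-ratios scaling, a pseudocount of 0.1, no filter, a filter at 5, limma without trend, a log2 change of at least 1, the replicate number as a block, the transcripts of each table without matching, the spread of all 12 libraries, and each library left out. Passing under 3 scalings, the list counts without single libraries and leaving out libraries with the gene set kept were added after the data were seen. In the reported results the replicate number is not a block. Results for some chosen genes are not reported here.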

Additional observations from a re-analysis of the deposited data

Results flagged for a closer look

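For the genes below the stage change differed between the genotypes by at least 1 on the log2 scale and passed limma's test of that difference (an interaction term) under all 3 scalings. The values are the log2 change in the double knockout minus that in wild type. Among matrix and bone genes the difference was 3.52 for Col1a1, 1.94 for Dcn, 1.86 for Serpinf1, 1.82 for Sparc, 1.77 for Adamts14, 1.25 for Col5a2 and 1.05 for Aebp1. Among genes of the secretory pathway and collagen maturation it was 2.18 for P4ha2, 1.25 for P4ha1, 1.12 for Ckap4, 1.01 for Os9 and 1.01 for Xbp1. Among transport genes it was 3.59 for Slc13a5 and 1.46 for Atp2b1, and among muscle genes 4.18 for Stac3, 1.84 for Myh3, 1.77 for Tnni1, 1.44 for Myog and 1.40 for Tnnt2. Apart from Stac3 these muscle genes started higher at E17 in wild type and ended near 0 in both genotypes or, for Tnni1, near the same level. Mean Myog went from 6.08 to 0.0185 in the double knockout and from 19.01 to 0.0801 in wild type, and the ratio of these means was larger in the double knockout, the opposite order to its difference. Tnnt2 did not pass with a pseudocount of 0.1, at 0.94 (adjusted p = 0.064).

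Other genes with a higher change in the double knockout had differences of 2.66 for Gm40193, 2.57 for Ildr2, 2.40 for Coro6, 2.02 for Tspan8, 1.90 for Ppp1r12b, 1.84 for Slc41a2, 1.56 for Myo19, 1.22 for Cdh23, 1.20 for Plxnc1 and 1.03 for Cdk18.

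Lower changes in the double knockout were found for signalling genes, with -1.86 for Phlda1, -1.31 for Dusp6, -1.78 for Ccn2, -1.73 for Edar, -1.46 for Tcf7, -1.12 for Igfbp3, -2.02 for Kcnmb4 and -2.07 for Kcnmb4os2. For transcription factors and the mitotic kinase gene they were -1.67 for Ascl5, -1.44 for Hey2, -1.40 for Prdm1 and -1.17 for Cdk1. For genes of cornifying epithelium and arginase they were -2.17 for Serpinb12, -1.47 for Serpinb2, -1.41 for Alox12b and -2.60 for Arg1, of which Alox12b did not pass without a filter on low values (adjusted p = 0.056). Serpinb2, Alox12b and Arg1 started higher at E17 in the double knockout and ended below 1 scaled RPKM in both genotypes. Mean E17 levels in the double knockout and wild type were 4.22 and 0.867 for Serpinb2 and 9.94 and 2.79 for Alox12b. Those of Arg1 were 41.5 and 6.43. Serpinb2 did not reach the level required for testing in wild type alone. For globin, nerve, vessel and mesenchymal genes and Lypd1 the differences were -2.25 for Hba-a2, -1.14 for Hba-a1, -1.36 for Ngfr, -1.11 for Tmem100, -1.85 for Twist2, -1.16 for Mfap4 and -2.14 for Lypd1.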

How the results depend on the processing

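The number of genes called between the stages in the double knockout was 1403, and it was 267 with a log2 change of at least 1. In wild type the numbers were 1334 and 226, and for the difference between genotypes 960 and 130. With each library left out in turn the counts were 1111 to 1362 in the double knockout, 1092 to 1221 in wild type and 858 to 981 for the difference, and with the genes of the full set kept they were 1245 to 1401, 1185 to 1325 and 863 to 988. Every other alternative run left the 3 counts within 1.5 times the values reported, with 990 (filter at 5) to 1717 (no filter) in the double knockout. With the replicate number as a block the counts were 1353, 1271 and 925. The numbers do not pair the libraries by the labels, and deviations of same-numbered double knockout libraries had correlations of -0.30, -0.16 and -0.28, so no library correlated best with its own number. Of the 162 genes followed in the double knockout, 5 lost their call in some setting other than a log2 change of at least 1 (Naca, Gas5, Vdac1, Tfam and Tcf7). Another 6 gained a call (Kif3a, Gli1, Cry1, Slc2a4, Sparc and Serpinb5), Serpinb5 also with the replicate block (0.20, adjusted p = 0.029), and no sign turned among the settings run. A log2 change of at least 1 removes the call of every smaller change, such as those of Cdk1 (-0.85) and Mcm6 (-0.72). Settings whose filter removed a gene were not counted for it. Gli1 was called without E17 replicate 1 (log2 -0.19, adjusted p = 0.048). Values at low RPKM rest on few reads, and 3 libraries per group limit the precision of each change.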
